A study of Mus musculus with 36 samples.

Results

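Transcripts of 10 skeletal muscle genes were followed through 36 libraries of epididymal white adipose tissue (eWAT): the myosin heavy chains *Myh1*, *Myh2* and *Myh4*, the giant sarcomere protein *Ttn*, the secreted growth inhibitor *Mstn*, and *Acta1*, *Ckm*, *Tnnt3*, *Mylpf* and *Pvalb*. Each of the 10 matched 1 row of the 24750 genes in the table. The genes were chosen because *Myh1*, *Ttn* and *Mstn* had been seen to be higher in ligatured CCL19-KI mice, so the comparison of genotypes within ligatured mice is given as values without a test, and tests were kept for mice without ligature. The libraries came from 36 male mice on a C57BL/6 background, 3 in each of 12 groups. WT mice were compared with Adipoq-CCL19-KI mice, a line in which murine *Ccl19* had been placed at the *Adipoq* locus with *Adipoq* itself kept, so the transgene follows a promoter used by adipocytes, and WT mice were bred apart from this homozygous line. Each genotype was fed a normal diet (ND), a 40% high-fat diet (HFD) or a 60% HFD for 10 weeks. In 18 mice a ligature was tied to induce periodontitis for the last 2 weeks, from 14 weeks of age, and the remaining 18 carry no mention of it in their labels. Mice with and without ligature were both part of the study, but the series' own text names ligature for the sequenced mice in general, so the sample labels were followed for which libraries had none. Lymph nodes had been removed from the fat pad before RNA was extracted.

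Skeletal muscle contracts when the myosin heads of thick filaments pull on thin filaments of actin, under the control of troponin and of calcium released inside the fibre. Fast fibres are told apart by the heavy chain they use, and *Myh4*, *Myh1* and *Myh2* encode the IIb, IIx and IIa chains. White fat is not a tissue that builds sarcomeres, and these genes serve in adipose studies mostly as signs of muscle fibres, whereas *Mstn*, made mainly by muscle, is also known to act on fat.

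Depth and labels were examined first. The libraries held 11962228 to 21581595 reads (median 15573273), 1 read stood for 0.0472 to 0.0834 normalized CPM, and the value of 3 reads, the limit that a count of 0 allows, was 0.142 to 0.250. The labelled tissue fitted its markers, since *Adipoq* was 300.1 to 3937 normalized CPM in all 36 libraries. *Ccl19* followed the genotype labels in the 18 ligatured mice, at 0.507 to 2.79 in WT and 11.8 to 34.6 in CCL19-KI mice. Without ligature, 2 libraries went against their labels: the library labelled ND-fed WT replicate 2 held 19.2, while the other 8 WT libraries held 0.826 to 4.51, and the library labelled 60% HFD-fed CCL19-KI replicate 3 held 0.687, while the other 8 held 5.57 to 27.5. No library was relabelled. Calls for genotype and diet without ligature, in the muscle genes and in the gene lists, are also given from a fit without both libraries, while correlations over the 36 libraries include them. Transcripts of other tissues were also present. The summed level of 9 smooth muscle genes ran from 213 to 5582 normalized CPM, that of 10 epididymis genes from 0.283 to 13843, and that of 10 hepatocyte genes from 1978 to 42090. In bulk tissue, fewer cells of a type and less RNA per cell cannot be told apart.

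The myosin heavy chain genes lie side by side on the plus strand of chromosome 11 in GENCODE M21 (GRCm38): *Myh2* at chr11:67171027-67197517, *Myh1* at chr11:67200052-67224575 and *Myh4* at chr11:67238029-67260446. Their longest coding transcripts have 6083, 6081 and 6016 bases, in 40, 40 and 39 exons. The coding sequence of *Myh1* matched that of *Myh2* at 91.1% of 5826 aligned bases and that of *Myh4* at 90.2% of 5820, and 29.3% and 20.0% of its words of 31 bases also occur in *Myh2* and *Myh4*. Reads lying wholly within stretches that the genes share cannot be assigned by sequence alone. The window of 60 coding bases with most differences is shown because reads like these do tell the genes apart. It joins exons 28 and 29 of *Myh1* (chr11:67215944-67215967 and chr11:67217464-67217499), exons 28 and 29 of *Myh2* (chr11:67190410-67190433 and chr11:67191348-67191383) and exons 27 and 28 of *Myh4* (chr11:67254103-67254126 and chr11:67254458-67254493). Capitals mark bases that differ from *Myh1*, which are 18 in *Myh2* and 20 in *Myh4*.
Myh1: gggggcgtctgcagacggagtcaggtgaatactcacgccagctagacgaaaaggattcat
Myh2: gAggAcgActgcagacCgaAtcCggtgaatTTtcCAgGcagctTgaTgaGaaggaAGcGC
Myh4: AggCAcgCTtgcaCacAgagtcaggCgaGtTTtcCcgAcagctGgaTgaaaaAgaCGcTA
The longest stretch identical in all 3 has 140 bases, across exons 15 and 16 of *Myh1* (chr11:67207552-67207590 and chr11:67208853-67208953), and is shown as the opposite case. The study's paired reads were longer than this before trimming, so only a shortened read could lie wholly within it.
Shared: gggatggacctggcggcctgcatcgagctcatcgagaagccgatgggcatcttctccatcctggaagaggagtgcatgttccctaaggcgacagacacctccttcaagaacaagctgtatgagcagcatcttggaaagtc

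**Figure D1:**
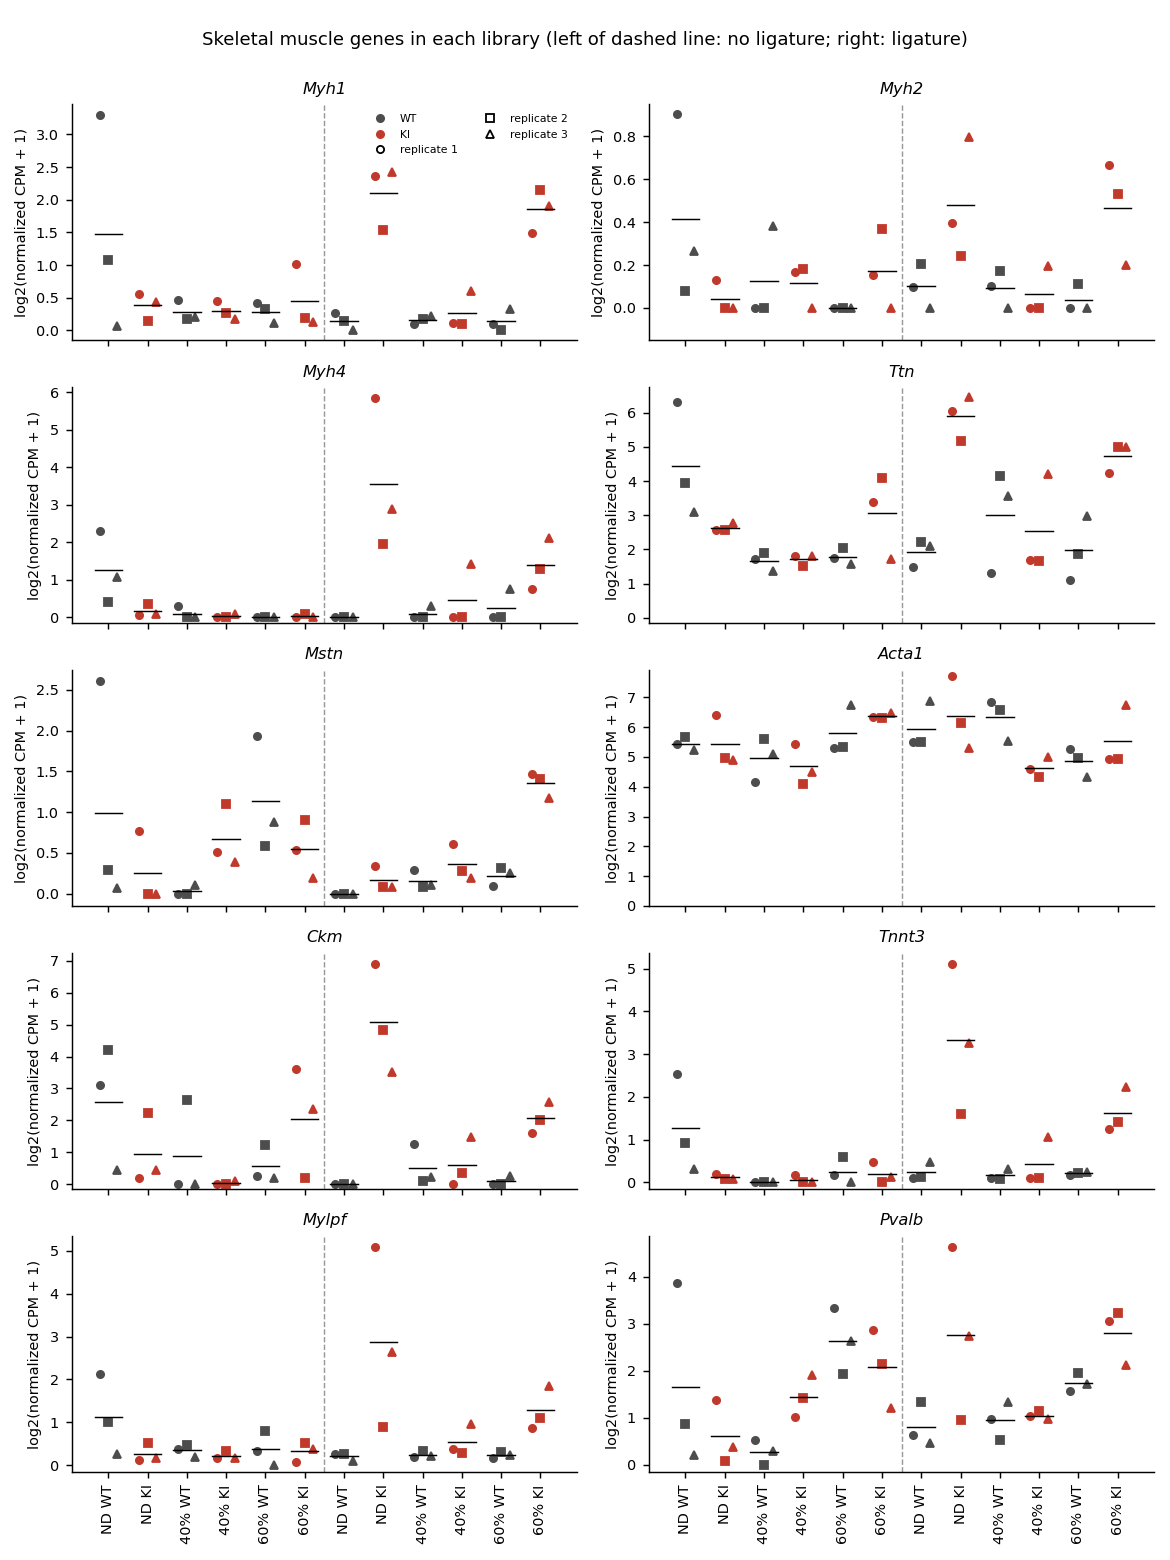
Level of each of the 10 genes in each of the 36 libraries, as log2(normalized CPM + 1), by diet and genotype (WT grey, CCL19-KI red), with replicates as symbols and black lines for group means. *Acta1* is present in every library (16.2 to 211 normalized CPM), while *Myh1*, *Ttn* and *Tnnt3* stand above WT in ligatured CCL19-KI mice on the ND and the 60% HFD, and are high in ND-fed WT replicate 1 without ligature (*Ttn* 78.9).

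*Myh1*, the IIx heavy chain, was low in most of the tissue, with a median of 0.204 normalized CPM over the 36 libraries, and at most 3 reads in 20 of them. In ligatured ND-fed CCL19-KI mice it was 4.13, 1.90 and 4.35, against 0.207, 0.101 and 0 in ligatured ND-fed WT mice. Under the 60% HFD, ligatured CCL19-KI mice held 1.81, 3.44 and 2.76, against ligatured WT mice at 0.0648, 0 and 0.253. All 3 CCL19-KI values thus stood above all 3 WT values on both diets, whereas under the 40% HFD the ranges 0.0707 to 0.512 and 0.0732 to 0.160 overlapped. Without ligature, the highest value of the series, 8.81, belonged to ND-fed WT replicate 1, beside 1.11 in replicate 2 and 1 read in replicate 3. The remaining 15 libraries without ligature held 0.0768 to 1.02.

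*Myh4*, the IIb chain of the fastest fibres, had 0 reads in 18 of the 36 libraries and reached 1 normalized CPM in 8. It was 56.2, 2.89 and 6.37 in ligatured ND-fed CCL19-KI mice and had no read in the 3 ligatured ND-fed WT libraries, so the mean was at least 111-fold higher than the value of 3 reads per library, and at least 23.5-fold higher without replicate 1. Ligatured 60% HFD-fed CCL19-KI mice held 0.687, 1.44 and 3.35, and WT mice 0, 0 and 0.694, where the lowest CCL19-KI value fell below the highest WT value. In ND-fed mice without ligature the order was the other way round. WT libraries held 3.97, 0.334 and 1.10 and CCL19-KI libraries 0.0472, 0.270 and 0.0591, with no overlap. This order rests on few reads, 6 in the lowest WT library against 5 in the highest CCL19-KI library. *Myh2*, the IIa chain, never reached 1 normalized CPM. Its highest values were 0.870 in ND-fed WT replicate 1 without ligature and 0.735 in ligatured ND-fed CCL19-KI replicate 3, and it was too low to be tested.

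The 3 chains were not mixed in one proportion. Among libraries with at least 20 myosin heavy chain reads, *Myh4* made up 92.7% of 1145 reads (95% exact binomial interval 91.0 to 94.1) in ligatured ND-fed CCL19-KI replicate 1. In replicates 2 and 3 of that group it was 58.0% of 81 reads (46.5 to 68.9) and 55.6% of 187 reads (48.2 to 62.9). In the ligatured 60% HFD-fed CCL19-KI mice, the share was 22.2% of 63 reads (12.7 to 34.5), 27.1% of 96 (18.5 to 37.1) and 53.6% of 84 (42.4 to 64.5). The ND-fed WT libraries without ligature ranged from 22.2% of 27 reads in replicate 2 to 81.5% of 27 (61.9 to 93.7) in replicate 3, with 29.1% of 251 (23.5 to 35.1) in replicate 1, where *Myh1* held 64.5%. Of the 20 reads in 60% HFD-fed CCL19-KI replicate 1 without ligature, none was *Myh4*, which allows a share of up to 16.8%. *Myh2* held at most 19.0% in these libraries, in ligatured 60% HFD-fed CCL19-KI replicate 1. The intervals cover counting error only, and not error in how RSEM assigned reads of shared sequence to the 3 genes. Mice of the same group thus differed in their *Myh4* share beyond that error.

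**Figure D2:**
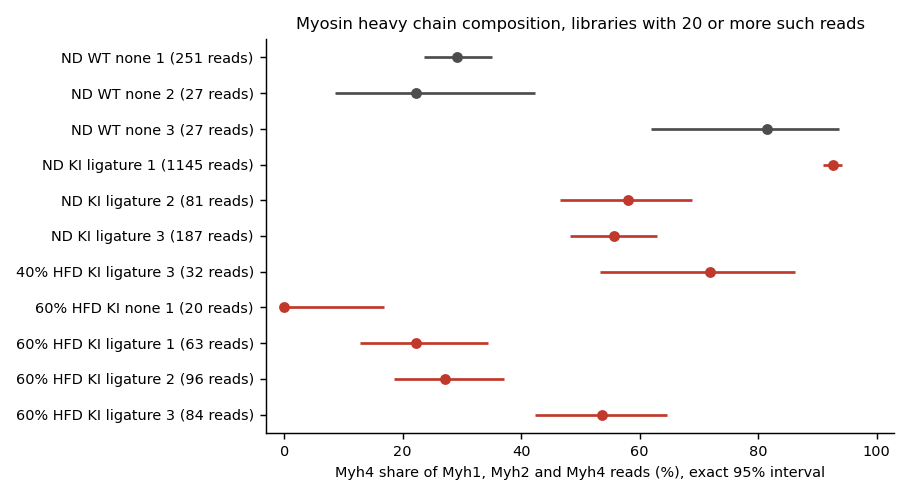
Share of *Myh4* (percent, with exact 95% intervals) among reads of *Myh1*, *Myh2* and *Myh4* in the libraries with at least 20 such reads, grey for WT and red for CCL19-KI. The share runs from 0% of 20 reads to 92.7% of 1145 reads and differs between replicates of 1 group.

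*Ttn* (chr2:76703980-76982547, minus strand, a transcript of 106824 bases in 347 exons) encodes titin, the elastic filament that runs from the Z-disc to the M-band, and it had reads in all 36 libraries. It was 65.6, 35.0 and 87.7 normalized CPM in ligatured ND-fed CCL19-KI mice and 1.79, 3.70 and 3.25 in ligatured ND-fed WT mice. Under the 60% HFD the ligatured values were 17.9, 31.1 and 30.8 against 1.17, 2.65 and 6.82. The 2 genotypes stood apart on both diets. Under the 40% HFD with ligature they did not, since high values occurred in WT replicates 2 and 3 (16.7 and 10.8) and in CCL19-KI replicate 3 (17.6), beside 1.46 to 2.26 in the other 3 libraries. Without ligature, ND-fed WT mice held 78.9, 14.4 and 7.50 and ND-fed CCL19-KI mice 4.95, 4.97 and 5.84. The 6 libraries of the 40% HFD without ligature all lay between 1.59 and 2.70. Per kilobase of transcript, *Ttn* was at most 0.821, a level below that of *Myh1* (1.45) at their highest.

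*Tnnt3* (chr7:142498836-142516009, plus strand), the fast isoform of the troponin that anchors the complex to tropomyosin, and *Mylpf* (chr7:127208890-127214298, plus strand), the regulatory light chain of fast myosin, moved with the heavy chains. *Tnnt3* was 33.5, 2.03 and 8.58 normalized CPM in ligatured ND-fed CCL19-KI mice and 0.0690 to 0.387 in ligatured ND-fed WT mice. *Mylpf* was 32.9, 0.860 and 5.27 against 0.0774 to 0.207. Under the 60% HFD with ligature, *Tnnt3* was 1.37 to 3.73 against 0.130 to 0.189 and *Mylpf* 0.834 to 2.61 against 0.130 to 0.241. In each of these comparisons the genotypes did not overlap. *Acta1* (chr8:123891769-123894751, minus strand), skeletal muscle alpha-actin, did not share this pattern. Its lowest value over the 36 libraries was 16.2, its median 40.5 and its highest 211, and ligatured CCL19-KI and WT mice overlapped on the ND (37.9 to 211 against 43.8 to 116) and on the 60% HFD (29.5 to 106 against 19.0 to 37.4). Under the 40% HFD with ligature *Acta1* was lower in all 3 CCL19-KI mice (23.4, 19.2 and 30.8) than in all 3 WT mice (115, 94.8 and 45.8). Actin genes share long coding stretches, so reads may have been divided between *Acta1* and other actins.

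*Ckm* (chr7:19404776-19422841, plus strand) encodes the muscle creatine kinase that buffers ATP, and *Pvalb* (chr15:78191114-78206400, minus strand) the calcium-binding parvalbumin of fast fibres. *Ckm* was 118, 27.4 and 10.4 in ligatured ND-fed CCL19-KI mice and had no read in the 3 WT counterparts, at least 264-fold higher in mean than the value of 3 reads per library, and at least 95.9-fold higher without replicate 1. Ligatured 60% HFD-fed CCL19-KI mice held 2.06, 3.05 and 4.99 and WT mice 0, 0 and 0.189. *Ckm* was also above 4 in 4 libraries without ligature in which *Myh1* was near 1 or below, picked here after their values were seen. These were ND-fed WT replicate 2 (17.3), 60% HFD-fed CCL19-KI replicates 1 and 3 (11.3 and 4.07) and 40% HFD-fed WT replicate 2 (5.28), whose *Myh1* was 1.11, 1.02, 0.0982 and 0.129. In these 4 libraries the smooth muscle genes summed to 2755, 2102, 1257 and 1241 and the epididymis genes to 12219, 407, 13843 and 2095, above the medians of 852 and 2.61 over the 36 libraries. Their part in the *Ckm* values was not tested.

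*Pvalb* was detected more widely, at 1 normalized CPM or more in 23 libraries. Its highest values were 23.8 in ligatured ND-fed CCL19-KI replicate 1 and 13.5 in ND-fed WT replicate 1 without ligature. Without ligature, 60% HFD-fed WT mice held 9.12, 2.84 and 5.22 and CCL19-KI mice 6.31, 3.39 and 1.33, where *Myh4* was at most 0.0721. *Pvalb* was therefore present where *Myh4* was at or near 0, while *Myh1* was 0.0768 to 1.02 in these 6 libraries. Under the 60% HFD with ligature, CCL19-KI mice (7.36, 8.32 and 3.35) stood above WT mice (1.94, 2.89 and 2.27).

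*Mstn* (chr1:53061640-53068079, plus strand, 2705 bases in 3 exons) encodes myostatin, a secreted ligand of the TGF-β family that limits muscle growth through activin type II receptors. It was 5.11 in ND-fed WT replicate 1 without ligature, where the heavy chains were also high. In ligatured ND-fed CCL19-KI mice it was only 0.265, 0.0613 and 0.0613, or at most 5 reads, while WT mice had none. Under the 60% HFD with ligature, CCL19-KI mice held 1.77, 1.66 and 1.27 and WT mice 0.0648, 0.241 and 0.189. Without ligature, *Mstn* on the 60% HFD was 2.82, 0.500 and 0.845 in WT mice, against 0.455, 0.865 and 0.147 with the knock-in. Under the 40% HFD without ligature, CCL19-KI mice held 0.425, 1.14 and 0.314 and WT mice 0, 0 and 0.0758, with no overlap. The library highest in *Myh4*, at 56.2, thus held *Mstn* at 0.265. Across the 36 libraries, Pearson r of log2(value + 1) was 0.15 between *Mstn* and *Myh4* (Spearman rho 0.09) and 0.69 between *Mstn* and *Pvalb* (rho 0.76), given as a description of libraries that share groups.

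In ligatured mice, 8 of the 10 genes were higher in all 3 CCL19-KI mice than in all 3 WT mice on the ND, and 8 of the 10 on the 60% HFD. On the ND this order rests on few reads for *Mstn*, with 1 read in 2 of the CCL19-KI libraries against none, and for *Myh2*, with 3 reads in the lowest CCL19-KI and in the highest WT library, levels at or below the limit that a count of 0 allows. On the 60% HFD the order of *Myh2* likewise rests on 2 reads in the lowest CCL19-KI library against 1 in the highest WT library, both below that limit. On the ND the exceptions were *Acta1* and *Pvalb*, and on the 60% HFD *Acta1* and *Myh4*. None of the 10 had this order under the 40% HFD. Over all 16653 genes that passed the filter in ligatured mice, the share with this order was 8.55% on the ND, 3.35% on the 40% HFD and 7.28% on the 60% HFD, and nothing is read from the comparison because the genes were picked on it. Of the 10, 9 passed that filter and *Myh2* did not. Differences of mean log2(value + 1) between CCL19-KI and WT mice on the ND were 1.97 for *Myh1*, 3.56 for *Myh4*, 3.97 for *Ttn*, 5.08 for *Ckm*, 3.09 for *Tnnt3* and 2.66 for *Mylpf*, but 0.17 for *Mstn*. On the 60% HFD they were 1.71 for *Myh1*, 1.13 for *Myh4*, 2.76 for *Ttn*, 1.99 for *Ckm* and 1.14 for *Mstn*.

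Whether the knock-in alone was accompanied by a difference was examined in the 18 mice without ligature. In ND-fed mice, *Myh4*, *Ttn* and *Tnnt3* were lower in all 3 CCL19-KI than in all 3 WT libraries, 3 of the 10 genes, the other 7 overlapped, and no gene of the 10 was higher in all 3. Between the lowest WT and the highest CCL19-KI library, *Myh4* rests on 6 reads against 5 and *Tnnt3* on 5 against 3. Over the 16923 genes that passed the filter, 14.6% had that order, and of the 10 genes, 1 of the 6 that passed it (*Ttn*) did. The filter asked for 1 normalized CPM or more in 3 or more of the 18, and 6 of the 10 met it and could be tested: *Myh1*, *Ttn*, *Mstn*, *Acta1*, *Ckm* and *Pvalb*. The kind of criteria the study used was kept, an unadjusted p with a ratio. A call needed an unadjusted p-value no larger than 0.05 and a change of 1.5-fold upwards or to 0.67 downwards, and adjusted p-values are given beside it. *Ttn* was the 1 gene of the 6 called, with 20.7% of all genes called. Its log2 difference was -1.81 (SE 0.65, limma, Benjamini-Hochberg adjusted p = 0.0953). Without WT replicate 1 it was -0.87 and no longer called (adjusted p = 0.312), nor was it called at an unchanged -1.81 in a fit of only the groups compared (adjusted p = 0.246), and without both libraries whose *Ccl19* went against the label it was -2.06 (adjusted p = 0.0529). *Myh1* differed by -1.10 (SE 0.55, adjusted p = 0.208) and *Ckm* by -1.62 (SE 1.00, adjusted p = 0.311), neither called. Without both discordant libraries *Ckm* differed by -0.81 (adjusted p = 0.631), *Myh1* no longer met the filter, and *Ttn* was the 1 gene called of 5 tested, with 25.1% of all genes called. Without WT replicate 3, however, 5 of the 6 genes were called lower: *Ttn* (-2.49), *Ckm* (-2.69), *Myh1* (-1.81), *Pvalb* (-1.76) and *Mstn* (-1.19), in a fit that called 17.6% of all genes.

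Without the library labelled WT replicate 2, *Myh4*, *Ttn* and *Tnnt3* were still lower in all 3 CCL19-KI libraries than in the remaining 2 WT libraries of the ND, an order that 23.8% of all genes then had. *Myh2* had it as well, but on few reads, with 16 and 4 in the WT libraries against 2, 0 and 0. The order of *Tnnt3* also rests on few reads, 5 in the lower WT library against 3. Of these genes only *Ttn* passed the filter.

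On the 40% HFD without ligature, none of the 6 genes was called (2.19% of all genes). *Mstn* and *Pvalb* were higher in all 3 CCL19-KI than in all 3 WT libraries, 2 of the 10 genes, an order that 7.37% of all genes showed. *Pvalb* was 1.03, 1.67 and 2.76 with the knock-in, against 0.451, 0 and 0.227, a log2 difference of 1.17 (SE 0.73, adjusted p = 0.953). It was called without ND-fed WT replicate 1, a library of another diet that enters only through the shared spread (adjusted p = 0.952), in a fit of only the groups compared (adjusted p = 0.512) and with a pseudocount of 0.1 (2.77, adjusted p = 0.937). In the fit of only the groups compared, *Pvalb* met the filter only through the 3 CCL19-KI libraries, so nothing is read from that call. On the 60% HFD, none of the 6 was called either (19.9% of all genes). *Ttn* was 9.38, 16.1 and 2.31 with the knock-in, against 2.35, 3.09 and 2.00, and the log2 difference of 1.28 (SE 0.65, adjusted p = 0.235) rose to 1.95 and was called (adjusted p = 0.0858) without CCL19-KI replicate 3, the library with WT-like *Ccl19*. The difference of 1.28 was also called without ND-fed WT replicate 1 (adjusted p = 0.102) or replicate 3 (adjusted p = 0.188). *Ckm* differed by 1.49 (SE 1.00, adjusted p = 0.377), and by 2.41 and called (adjusted p = 0.159) without CCL19-KI replicate 2. *Acta1* was called without 60% HFD-fed WT replicate 3 (1.05, adjusted p = 0.289). Without the library labelled CCL19-KI replicate 3, *Ttn* was higher in both remaining CCL19-KI libraries than in all 3 WT libraries, an order that 24.9% of all genes then had. *Myh2* had it as well, on 2 and 4 reads against none. Without both discordant libraries *Ckm* differed by 1.34 (adjusted p = 0.420), and *Ttn*, at 1.95, was the 1 gene called of 5 tested, with 23.2% of all genes called. In the averaged effect of genotype over the 3 diets, no gene of the 6 was called (2.67% of all genes), with differences from -0.33 for *Ckm* to 0.10 for *Acta1*.

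**Figure D3:**
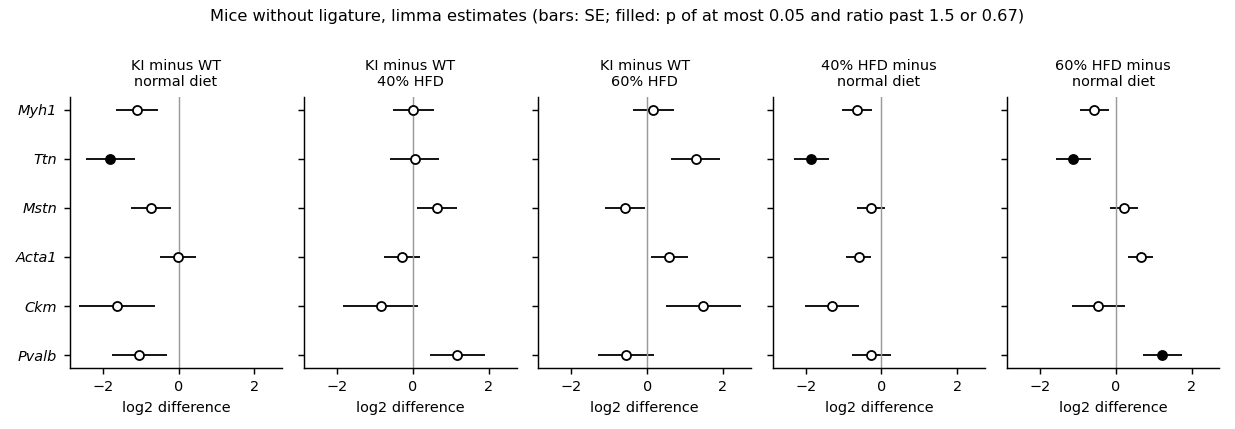
Differences of mean log2(normalized CPM + 1) with their SE for the 6 testable genes in the 18 mice without ligature, for genotype within each diet and for each HFD against the ND over both genotypes. Filled points passed the criteria of p and ratio: *Ttn* lies at -1.81 for genotype on the ND and at -1.86 and -1.12 for the diets, and *Pvalb* at 1.23 for the 60% HFD.

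Diet was compared in the same 18 mice, over both genotypes. *Ttn* was lower on the 40% HFD than on the ND by a log2 difference of -1.86 (SE 0.46, adjusted p = 0.0835), the 1 gene of the 6 called (4.82% of all genes). All 6 libraries of the 40% HFD lay below all 6 of the ND, and *Ttn* was called in every alternative tried, with differences from -2.53 to -1.21 and adjusted p from 0.0320 to 0.273. On the 60% HFD, compared with the ND, *Ttn* differed by -1.12 (SE 0.46, adjusted p = 0.969) and *Pvalb* by 1.23 (SE 0.52, adjusted p = 0.969), 2 of the 6 genes called (1.81% of all genes). The *Ttn* call was lost without ND-fed WT replicate 1 (-0.65), 60% HFD-fed WT replicate 3 (-1.07) or 60% HFD-fed CCL19-KI replicate 3 (-0.79), without both discordant libraries (-0.91) and with a pseudocount of 5 (-0.76). The *Pvalb* call was lost in 7 of the 18 fits that left out 1 library, with differences from 0.87, without ND-fed WT replicate 3, to 1.21, and in the other 11 it held. It was also lost with a pseudocount of 5 (0.46) and with edgeR (1.39), and held without both discordant libraries (1.25). Other genes were called when 1 library was left out: without ND-fed WT replicate 3, *Myh1* on the 40% HFD (-0.997) and the 60% HFD (-0.92) and *Ckm* on the 40% HFD (-1.85), without 40% HFD-fed WT replicate 2, *Ckm* (-1.75) and *Acta1* (-0.77) on that diet, without 40% HFD-fed CCL19-KI replicate 1, *Acta1* on that diet (-0.80), and without ND-fed CCL19-KI replicate 1, *Acta1* on the 60% HFD (0.90). With alternative settings, *Ckm* (edgeR and a pseudocount of 0.1) and *Myh1* (edgeR) were also called on the 40% HFD.

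A change of the genotype difference with diet was called for *Ttn*, by the unadjusted p and ratio only. Its genotype difference was 3.09 log2 units higher on the 60% HFD than on the ND (SE 0.92, limma, adjusted p = 0.0505). The change was called in all alternatives tried, with adjusted p from 0.0118 to 0.112. Its size ran from 2.15, without ND-fed WT replicate 1, to 4.51, and was 4.01 without both libraries of discordant *Ccl19* (adjusted p = 0.0335). *Ckm* gave 3.11 (SE 1.41, adjusted p = 0.161), but the call was lost in 11 of the 18 fits without 1 library (2.30 without ND-fed WT replicate 2, 2.32 without 60% HFD-fed CCL19-KI replicate 1, and 2.72 to 3.11 in the other 9) and at 2.15 without both discordant libraries. These were 2 of the 6 genes, with 27.4% of all genes called, and nothing particular to the 6 is read from that count. *Myh1* was called without ND-fed WT replicate 3 (1.97) and with edgeR (4.22). Between the 40% HFD and the ND none of the 6 was called (16.4% of all genes), and the differences were 1.85 (SE 0.92) for *Ttn* and 2.21 (SE 1.04) for *Pvalb*. *Mstn* was called without ND-fed WT replicate 2 (1.72) or replicate 3 (1.82), and *Myh1* without ND-fed WT replicate 3 (1.82). *Pvalb* was called without ND-fed WT replicate 2 (2.59), ND-fed WT replicate 3 (2.93), ND-fed CCL19-KI replicate 1 (2.59) or 60% HFD-fed CCL19-KI replicate 3 (2.21), as well as without both discordant libraries (2.59), and *Ttn* without ND-fed WT replicate 3 (2.54), 60% HFD-fed CCL19-KI replicate 3 (1.85) or both discordant libraries (2.11).

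The genes varied together across libraries, to different degrees. Over the 36 libraries, Pearson r of log2(value + 1) was 0.97 between *Tnnt3* and *Mylpf*, 0.96 between *Tnnt3* and *Myh4*, and 0.86 between *Myh1* and *Ttn*. Spearman's rho was lower, at 0.49, 0.61 and 0.67, and *Tnnt3* had at most 3 reads in 23 libraries. Without ligatured ND-fed CCL19-KI replicate 1 and ND-fed WT replicate 1 without ligature, whose mean over the 10 genes lay farthest from the median of the libraries, r was 0.93, 0.92 and 0.82. For *Acta1* r was 0.18 with *Myh1* and 0.43 with *Ckm*. The other genes whose log2 values were most like the mean of the 10, among 17843 compared over the 36 libraries, included *Atp2a1* (r = 0.95), the calcium pump of fast fibres, *Xirp2* (0.93), *Myoz1* (0.92), a Z-disc protein, *Tnni2* (0.91), the fast troponin I, *Mylk4* (0.90), *Mb* (0.81), which encodes myoglobin, *Cacna1s* (0.79), the voltage sensor of the fibre, *Txlnb* (0.78) and *Ryr1* (0.77), the calcium release channel. Without those 2 libraries the coefficients ran from 0.57 for *Cacna1s* to 0.91 for *Atp2a1*. *Atp2a1* itself ranged from 0 to 52.0 normalized CPM, with a median of 0.232. These are values over libraries that share groups and are not tests.

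Lists of other muscle genes were counted in the same fits without ligature. Beside these counts, the share of all genes called for genotype in either direction was 20.7% on the ND and 19.9% on the 60% HFD, and nothing particular to a list is read from them. Of the 13 fast-fibre genes, which include 6 of the 10, 7 were tested. On the ND, 1 was lower in CCL19-KI mice (*Myl1*, an essential light chain, log2 difference -1.66, SE 0.48, adjusted p = 0.0484) and none was higher, with a median of -1.03 beside -0.09 over all genes. On the 60% HFD, 1 was higher (*Casq1*, the calsequestrin of fast fibres, 1.40, SE 0.61, adjusted p = 0.175) and none lower, with a median of 0.17 beside 0.03. Among 20 Z-disc, M-band and titin genes, 11 were tested. On the ND 1 was higher and 3 were lower, *Ttn* among them, and on the 60% HFD 3 were higher (*Myom1*, *Des* and *Pdlim3*) and 1 lower. Of the 14 calcium-handling genes in the table, 8 were tested, with 2 lower on the ND (*Ryr1* and *Jph1*) and 4 higher on the 60% HFD. None of the 3 tested slow-fibre genes was called on the ND, and *Casq2* was higher on the 60% HFD. *Myh7* and *Tnni1*, the slow heavy chain and troponin I, were at most 0.529 and 0.371 in any library, and *Myh6*, a cardiac heavy chain, at most 0.820. Of the myogenic factors, *Six4* was called higher on the 60% HFD and *Mef2c* was not called for genotype on the ND, the 40% HFD or the 60% HFD, and the others of that list are not reported here. The genes named for their calls in these lists were picked after their values were seen. Of 16 genes of the myostatin pathway, all were tested. On the ND *Inhbb* (-1.24, SE 0.42, adjusted p = 0.0782) and *Fstl3* (-0.96, SE 0.44, adjusted p = 0.178), an activin subunit and a follistatin-like inhibitor, were lower in CCL19-KI mice, and none of the 16 was called for genotype on the 40% or 60% HFD. Without both discordant libraries, when 25.1% and 23.2% of all genes were called on the ND and the 60% HFD, *Myl1* was called on the ND (-1.96, adjusted p = 0.0388) and *Casq1* on the 60% HFD (1.40, adjusted p = 0.111). Of the 6 fast-fibre genes then tested, 1 was lower on the ND (median -0.19) and 2 were higher on the 60% HFD (median 0.90). Of 10 Z-disc, M-band and titin genes, 2 were higher and 3 lower on the ND, and 5 higher and 1 lower on the 60% HFD. Of 7 calcium-handling genes, 2 were lower on the ND and 3 higher on the 60% HFD. *Casq2* no longer met the filter. Of the 2 slow-fibre genes then tested, 1 was called higher on the 60% HFD (*Tnnt1*, median of the list 1.47) and 0 on the ND. *Six4* was called (0.76, adjusted p = 0.144). In the myostatin pathway *Inhbb* was called (-1.31, adjusted p = 0.0621) and *Fstl3* was not (-0.83, adjusted p = 0.284), while *Acvr2b* and *Wfikkn2* were called higher on the ND, and *Wfikkn2* higher and *Acvr2a* lower on the 60% HFD.

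Markers of other tissues moved with part of the pattern. In ligatured ND-fed CCL19-KI mice, the smooth muscle list summed to 5582, 3433 and 419 normalized CPM in replicates 1, 2 and 3 and the epididymis list to 3157, 1403 and 18.1, against 213 to 353 and 0.912 to 3.95 in ligatured ND-fed WT mice. Replicate 3, with the lowest smooth muscle sum of its group, held *Ttn* at 87.7 and *Myh4* at 6.37. That library also had the highest neuron sum of the series, with *Snap25*, a synaptic protein, at 90.3. The 9 neuron genes summed to 49.9, 74.8 and 177 in replicates 1, 2 and 3, against 24.6 to 39.9 in the WT mice. The adipocyte list was 11828 to 21331 in these CCL19-KI mice and above that in the WT mice, up to 33270, and the hepatocyte list was 2841 to 10350 against 5714 to 14934. The cardiac list, which holds none of the 10 genes, was 10.7 to 35.8 against 4.76 to 7.12. In ligatured 60% HFD-fed CCL19-KI mice the smooth muscle list summed to 930 to 1471, above the 700 to 878 of WT mice, whereas the epididymis list, at 1.04 to 3.11, lay within the WT range of 0.907 to 53.2. Also above the WT mice were the cardiac list (15.5 to 35.0 against 11.2 to 14.2), the brown adipocyte list (62.7 to 99.5 against 47.4 to 52.0) and the exocrine pancreas list (36.6 to 49.6 against 29.3 to 36.4). The 13 fast-fibre genes summed to 384, 87.6 and 104 and to 33.8, 40.2 and 54.4 in those 2 CCL19-KI groups, and to 22.2 to 41.7 and 16.4 to 24.4 in the WT groups. Under the 60% HFD without ligature, the smooth muscle list was 1257 to 2102 in CCL19-KI and 822 to 1168 in WT libraries, and 7 of its 9 genes were called higher (19.9% of all genes called), with a median log2 difference of 2.23 beside 0.03 over all genes. The epididymis list was 407 to 13843 in those CCL19-KI libraries and 0.402 to 0.768 in the WT libraries. Without the library labelled CCL19-KI replicate 3, which held 13843, the epididymis list was 407 and 8831 in CCL19-KI mice. In the same comparison 9 of 10 hepatocyte genes (sums of 2130 to 3515 against 13549 to 42090) and 4 of 7 tested kidney tubule genes were called lower. Without both discordant libraries the counts were again 7 of 9 smooth muscle genes higher (median 2.12), and 9 of 10 hepatocyte and 4 of 7 kidney tubule genes lower. The adipocyte, brown adipocyte and exocrine pancreas sums were lower in all 3 CCL19-KI than in all 3 WT libraries (10574 to 13605, 24.4 to 31.7 and 13.6 to 28.8 against 17344 to 21392, 73.9 to 105 and 32.3 to 54.7), and the neuron sums higher (20.9 to 42.5 against 11.5 to 19.5). In ND-fed mice without ligature, where *Ttn* was lower in CCL19-KI mice, none of the smooth muscle genes was called, 5 of 10 adipocyte genes were called lower (sums of 8976 to 19316 against 18416 to 32113 in WT mice) and 8 of 10 hepatocyte genes higher (20.7% of all genes called). Also higher there were 7 of 8 exocrine pancreas genes (median 2.69, sums of 35.3 to 154 against 11.1 to 62.6) and 3 of 7 tested kidney tubule genes (sums of 137 to 308 against 65.6 to 96.6), and the mesothelium list summed to 592 to 1932 against 367 to 548. Those 7 pancreas genes had medians of at most 0.122 normalized CPM over the 36 libraries and their highest values in these CCL19-KI mice. Nothing is therefore read from their calls, with or without the discordant libraries. *Cela1*, which was not called, made up 62.5 of the sum of 62.6, in ND-fed WT replicate 1. Without both discordant libraries 7 of 10 adipocyte genes were lower, 9 of 10 hepatocyte genes higher and 1 lower, and 7 of 8 exocrine pancreas and 1 of 7 kidney tubule genes higher. Of 7 macrophage genes, 2 were called lower on the ND, and 5 without both discordant libraries (median -1.09, 25.1% of all genes called). In the comparisons of diet, 8 of 10 hepatocyte genes were called higher on the 40% HFD than on the ND (median log2 difference 5.01, 4.82% of all genes called), and 5 of 10 on the 60% HFD (median 2.06, 1.81% of all genes called). Without both discordant libraries 9 and 8 of the 10 were called (5.22% and 3.14% of all genes). The part of these tissues in the muscle transcripts was not tested.

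**Figure D4:**
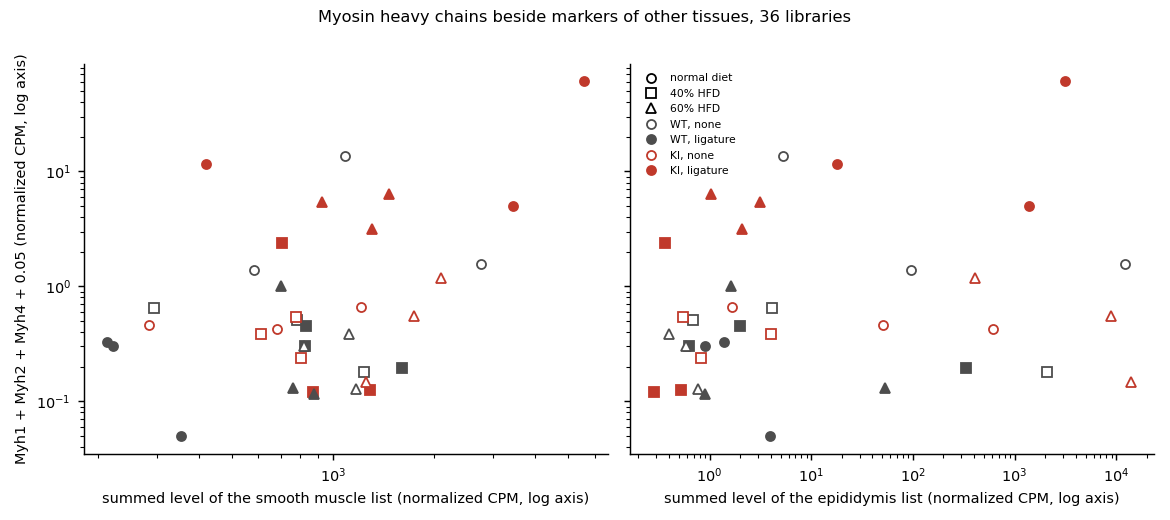
Sum of *Myh1*, *Myh2* and *Myh4* (normalized CPM plus 0.05, log axis) against the summed level of the smooth muscle list (left) and of the epididymis list (right, both log axes) in 36 libraries. Filled symbols are ligatured mice. Ligatured ND-fed CCL19-KI replicate 3 and ND-fed WT replicate 1 without ligature have myosin sums of 11.5 and 13.6 with smooth muscle sums of 419 and 1082, while the largest epididymis sum, 13843, goes with a myosin sum of 0.0982.

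Upstream sequences are shown for 4 of the genes that differed in how they followed the others: *Myh4* and *Ttn*, which stood high together, *Mstn*, which followed *Pvalb*, and *Acta1*, which was present everywhere. The 250 bases before the RefSeq start were taken from the GRCm38.p6 table, on the strand of the gene, and capitals mark the E-box (CANNTG, searched on both strands), the motif bound by MyoD-type factors among many others.
Myh4 (chr11:67237562-67237811, plus strand): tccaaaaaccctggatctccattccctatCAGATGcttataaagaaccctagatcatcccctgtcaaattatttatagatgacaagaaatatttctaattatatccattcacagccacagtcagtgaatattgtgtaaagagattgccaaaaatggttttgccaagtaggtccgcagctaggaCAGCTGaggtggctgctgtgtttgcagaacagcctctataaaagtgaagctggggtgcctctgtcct
Ttn (chr2:76982548-76982797, minus strand): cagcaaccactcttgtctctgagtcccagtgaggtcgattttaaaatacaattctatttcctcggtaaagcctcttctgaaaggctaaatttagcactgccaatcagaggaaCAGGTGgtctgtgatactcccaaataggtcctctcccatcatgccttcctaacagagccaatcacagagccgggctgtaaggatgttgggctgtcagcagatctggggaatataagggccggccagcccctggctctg
Mstn (chr1:53061390-53061639, plus strand): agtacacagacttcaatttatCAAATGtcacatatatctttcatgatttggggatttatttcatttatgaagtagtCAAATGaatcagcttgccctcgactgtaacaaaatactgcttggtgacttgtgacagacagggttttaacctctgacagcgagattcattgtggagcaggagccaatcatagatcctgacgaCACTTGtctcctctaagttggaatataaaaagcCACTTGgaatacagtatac
Acta1 (chr8:123894776-123895025, minus strand): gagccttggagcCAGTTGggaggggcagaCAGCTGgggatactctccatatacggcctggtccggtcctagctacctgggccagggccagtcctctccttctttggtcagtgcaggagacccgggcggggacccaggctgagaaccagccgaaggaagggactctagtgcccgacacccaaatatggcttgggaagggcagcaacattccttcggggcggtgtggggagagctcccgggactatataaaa
Of the 9 genes with an entry (all but *Tnnt3*), 6 had an E-box in the window of their first entry (7 with the second entry of *Pvalb*), 4 a TATAAA and 4 the MEF2 motif, both also searched on both strands, each on its own, so that overlapping matches count for both. Over all 32851 windows of this length in the table, 66.2% had an E-box, 12.4% a TATAAA and 1.69% the MEF2 motif. *Mstn* had 4 E-boxes, *Myh4* and *Acta1* 2 each and *Ttn* 1, while *Myh4* and *Ttn* held a MEF2 match each and *Mstn* and *Acta1* none. A match is a run of letters and not a bound site.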

How the data were processed

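RNA from eWAT of 36 mice was sequenced after rRNA depletion. Per the study's methods, the authors trimmed reads with Trimmomatic, aligned them to mm10 transcripts with Bowtie2 inside RSEM and deposited edgeR-normalized CPM, a signal scaled per library (sums 799716 to 1208061). The submitters' processing notes name Trimmomatic 0.38, RSEM 1.3.0 and GRCm39. All values (100%) were whole multiples of 1 read (tolerance 0.01), so whole counts were recovered. The paper describes its counts as coming from abundance estimation by RSEM. The reads given here are therefore estimated counts, and for genes with shared sequence they are not direct observations. The 10 genes and the gene lists were chosen with earlier results of these data known. The genes named are the 10, the listed genes, the 10 most correlated genes and *Ccl19*. Some genes covered by this rule are not reported here.

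In the 18 mice without ligature, limma 3.58.1 (R 4.3.3, eBayes with trend) was fitted to log2(value + 1) with 6 group means over 16923 genes, and p-values were Benjamini-Hochberg adjusted over all of them. Fold changes on this scale understate changes of low genes. The labels give each mouse as a separate sample. Alternatives were pseudocounts of 0.1 and 5, no filter, median-of-ratios scaling, the replicate number as a block, edgeR 4.0.16 on recovered reads, fits of only the groups compared, and leaving out each library. Leaving out both libraries of discordant *Ccl19* was added after seeing the data. The fit was tested on simulated data. Positions are from GENCODE M21.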

Additional observations from a re-analysis of the deposited data

Results flagged for a closer look

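The genotype difference of 2 genes was called as differing between diets in mice without ligature: by 3.09 log2 units for *Ttn* and 3.11 for *Ckm*, 60% HFD minus ND. These are 2 of 6 genes tested, where 27.4% of all genes were called, and the *Ckm* call was lost in 11 of 18 fits without 1 library. *Ttn* was called in all alternatives tried, but its value fell to 2.15 without ND-fed WT replicate 1. In ND-fed mice, 3 genes stood lower in all CCL19-KI libraries than in all WT libraries without ligature and higher in all of them with ligature. The differences were -1.10 and 3.56 for *Myh4*, -1.81 and 3.97 for *Ttn*, and -1.15 and 3.09 for *Tnnt3*, and whether they differ by ligature was not tested. Without ligature the order rests on few reads for *Myh4* (6 against 5 in the closest libraries) and *Tnnt3* (5 against 3). Over all genes passing the filter, 14.6% had the first order and 8.55% the second. Without ligature only *Ttn* of the 3 passed that filter, 1 of the 6 genes tested, so *Myh4* and *Tnnt3* lie outside the genes that the 14.6% covers. The order with ligature is part of what the genes were picked on, and nothing is read from it. Groups of 3 are too small to be examined for single outlying mice.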

How the results depend on the processing

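No called gene changed direction under any alternative. Of 1154 values of the 6 tested genes under alternatives, 36 that were not called changed sign, and 64 could not be had because the gene was not tested. The numbers below are genes called among all genes tested and among the 10, with the share of all genes called in parentheses. With a pseudocount of 5 the counts over all genes were 2294 for genotype on the ND, 116 on the 40% HFD, 188 averaged over diets and 105 for the 60% HFD against the ND, where 0 of the 10 was called. With a pseudocount of 0.1 they were 1042 averaged over diets and 594 for the 60% HFD against the ND, and among the 10, 1 was called for genotype on the 40% HFD (3.18%), 2 for the 40% HFD against the ND (6.06%), 2 for the difference of genotype effects between the 40% HFD and the ND (17.1%) and 1 for that between the 60% HFD and the ND (27.7%). Without the filter, 4 of the 10 were called for genotype on the ND (15.0%), 3 for the 40% HFD against the ND (3.41%) and 2 for the 40% HFD difference of genotype effects (11.9%). With edgeR on recovered reads, the counts over all genes were 604 for genotype on the 40% HFD, 1368 averaged over diets and 578 for the 60% HFD against the ND, and among the 10 they were 2 for genotype on the ND (*Myh1*, -3.29, and *Ttn*) (23.6%), 1 on the 40% HFD (3.57%), 1 on the 60% HFD (24.2%), 3 and 1 for the 40% and 60% HFD against the ND (6.55% and 3.42%) and 3 for the 40% HFD difference of genotype effects (17.7%). In fits of only the groups compared, where 3 of the 10 met the filter on the ND and on the 40% HFD, 0 was called on the ND (17.9%) and 1 on the 40% HFD (3.44%). That 1 gene, *Pvalb*, met the filter only through the CCL19-KI libraries. Without both libraries of discordant *Ccl19*, the counts were 1007 averaged over diets and 517 for the 60% HFD against the ND, and among the 10, 1 for genotype on the 60% HFD (23.2%), 1 for the 60% HFD against the ND (3.14%), and 2 and 1 for the 40% and 60% HFD differences of genotype effects (21.5% and 25.3%). The cause of these shifts was not tested. Median-of-ratios scaling changed no call of the 10.

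No clear sign was seen that replicate numbers pair the mice, though this comparison cannot exclude it. Deviations of same-numbered libraries correlated at -0.61 to 0.72 over 45 pairs of libraries (median 0.05), 15 of them over 0.1. Of 90 pairs with different numbers, 25 were over 0.1 (median -0.01). With the replicate block, 3520 genes were called for genotype on the ND (2 of the 10, *Myh1* and *Ttn*), 384 on the 40% HFD and 3352 on the 60% HFD, and 2 of the 10 for the 40% HFD difference of genotype effects (16.2%).

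Leaving out 1 library at a time gave, over all genes and among the 10, 2275 to 5000 and 0 to 5 calls for genotype on the ND, 283 to 858 and 0 to 1 on the 40% HFD, 2453 to 3745 and 0 to 1 on the 60% HFD, 363 to 765 and 0 averaged over diets, 636 to 1152 and 1 to 3 for the 40% HFD against the ND, 240 to 601 and 1 to 3 for the 60% HFD against the ND, 1703 to 4405 and 0 to 4 for the 40% HFD difference of genotype effects, and 3617 to 5769 and 1 to 3 for the 60% HFD difference. The number of the 10 genes higher in all CCL19-KI than in all WT mice with ligature, on which they were picked, was 8 to 9 on the ND and the 60% HFD and 0 to 1 on the 40% HFD. No gene of the 10 passed an adjusted p of 0.05 in the fit reported. On the 40% HFD, limma called no gene at that level for genotype, with 723 genes at an unadjusted p under 0.05. Depth limits *Myh2* and *Myh4*, with at most 3 reads in 28 and 24 of 36 libraries.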
